A study of Caenorhabditis elegans with 2 samples.

Results

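The genes described here are 7 stress-inducible heat shock genes of Caenorhabditis elegans, 7 of 19985 protein-coding genes in the annotation. They are the HSP70 genes F44E5.4, F44E5.5 and hsp-70, and the small heat shock protein genes hsp-16.1, hsp-16.2, hsp-16.41 and hsp-16.48. ChIP-seq of the homeobox transcription factor CEH-79 was deposited as peak lists, each peak with a signal value given by the authors. The genes were chosen by these measured values, so their peaks are given as a description with no test. A summit was assigned to a gene where it lay at most 1000 bp before the gene's start or at most 200 bp after it. The worms were strain OP553, which carries the unc-119 allele tm4063 and an integrated transgene, wgIs553, that encodes CEH-79 with GFP and FLAG at its C-terminus. The labels do not name the sequence that drives the transgene. Whole young adults of mixed sex were taken 66 hours after synchronization as starved L1 larvae, and chromatin was sheared by sonication and precipitated with anti-GFP. The series holds 1 group of 2 biological replicates, a list pooled over both, and a list of optimal peaks thresholded on the irreproducible discovery rate. The labels record no heat or other stress, and the peak lists hold no RNA levels, so whether these genes were expressed in the worms cannot be read from them.

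HSP70 proteins are chaperones that use ATP to fold or refold other proteins. The small heat shock proteins of the HSP16 family need no ATP and hold unfolding proteins in a soluble state until HSP70 can act on them. In C. elegans the genes described here are nearly silent in unstressed worms and are strongly induced by heat through the transcription factor HSF-1. HSF-1 binds as a trimer to the heat shock element, in which short GAA units and their complement TTC alternate at a fixed spacing. The paired genes are divergent: they start back to back and share the promoter between them. HSF-1 was not the protein precipitated here.

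The sequences below are the peak between F44E5.4 and F44E5.5 and stretches between the starts of the hsp-16 pairs, which held no summit. Whether their sequence bears on the summits was not tested. All are the plus strand of the RefSeq sequence of WBcel235, the assembly also called ce11. Capitals mark the words GAANNTTC and TTCNNGAA, here called heat shock element words, each of 2 alternating units. The peak lies at chrII:11759342-11759606, and its pooled summit is base 117 of the run. The hsp-16.2/hsp-16.41 stretch is the whole 220 bases between the starts, chrV:1804958-1805177. The hsp-16.1/hsp-16.48 stretch is the middle 300 bases, chrV:9087807-9088106.
F44E5.4/F44E5.5: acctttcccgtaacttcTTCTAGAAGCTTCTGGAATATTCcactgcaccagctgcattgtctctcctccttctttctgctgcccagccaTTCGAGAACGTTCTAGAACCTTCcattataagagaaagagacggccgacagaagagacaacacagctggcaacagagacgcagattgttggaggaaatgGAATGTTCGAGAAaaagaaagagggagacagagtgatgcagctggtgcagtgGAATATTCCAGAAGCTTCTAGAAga
hsp-16.2/hsp-16.41: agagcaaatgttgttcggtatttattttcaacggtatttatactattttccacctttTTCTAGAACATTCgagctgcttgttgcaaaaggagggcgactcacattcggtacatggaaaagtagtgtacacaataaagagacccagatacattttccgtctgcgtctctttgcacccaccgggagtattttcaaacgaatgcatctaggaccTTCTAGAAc
hsp-16.1/hsp-16.48: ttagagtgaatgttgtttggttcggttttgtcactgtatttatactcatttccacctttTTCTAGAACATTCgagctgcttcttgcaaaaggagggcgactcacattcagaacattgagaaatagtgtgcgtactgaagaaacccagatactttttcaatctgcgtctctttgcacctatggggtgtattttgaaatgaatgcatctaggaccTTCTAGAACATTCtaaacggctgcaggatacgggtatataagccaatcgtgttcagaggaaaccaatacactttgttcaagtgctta

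Strong recovery of tagged CEH-79 was seen at 1 of these promoters, the stretch shared by F44E5.4 and F44E5.5. Its peak had a signal of 237.5 in the pooled list, where it ranked 8 of 30000 candidates. In replicate 1 the peak ranked 9 of 30000 with a signal of 137. In replicate 2 it ranked 15 of 29624 with a signal of 101. The rank was thus high in each replicate alone, and signals are not set against each other between lists because the sources used here do not give their scaling. The summit lay at base 11759458 of chromosome II in the pooled list and in replicate 1, and at base 11759441 in replicate 2, 17 bp nearer to F44E5.4. The pooled summit was 147 bp before the start of F44E5.4 and 204 bp before the start of F44E5.5. The replicate peaks lay wholly inside the pooled one and covered 88.7% of it in replicate 1 and 80% in replicate 2.

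This peak was narrower than most. It spanned 265 bp in the pooled list, 235 bp in replicate 1 and 212 bp in replicate 2, where the commonest widths were 424, 436 and 420 bp. Peaks narrower than the commonest width made up 5.48% of the 566 optimal peaks and 0.12% of pooled candidates. Among the 25 strongest peaks 15 were narrower, so a narrow interval was common at that signal. The peak was intergenic. Genes of tRNA, snoRNA and snRNA were distant: the nearest was the snoRNA gene K12D12.6, 117002 bp away.

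F44E5.4 (WBGene00009691) lies on the minus strand at chrII:11757107-11759311, and F44E5.5 (WBGene00009692) on the plus strand at chrII:11759662-11761861. Their coding sequences are identical over 1935 bases, and the whole gene models are 99.2% identical. Only 1.81% of the bases of F44E5.4 and 3.23% of those of F44E5.5 start a run of 36 bases that occurs once in the genome. The peak itself is different in this respect: 94.7% of its bases start such a run, and all of them do with runs of 50 bases. The promoter had no match of 100 bases or more at 80% identity elsewhere in the genome. The lists hold 1 other candidate within 2500 bp of the starts of these genes, past the 3' end of F44E5.4. It ranked 24849 in the pooled list and 5705 in replicate 2, and replicate 1 had none there.

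Across the 7 genes, 2 had an optimal summit, F44E5.4 and F44E5.5, through that shared peak. Of all protein-coding genes 1.33% had an optimal summit in the same window. In the pooled list of candidates, which reaches far below the optimal threshold, 4 of the 7 had a summit: F44E5.4, F44E5.5, hsp-70 and hsp-16.41. The share over all genes was 32.2%. Replicate 1 gave 3 of 7, F44E5.4, F44E5.5 and hsp-70, where 32.4% of all genes had a summit. Replicate 2 also gave 3 of 7, F44E5.4, F44E5.5 and hsp-16.41, with 32.5% of all genes. The 7 genes stand at 4 promoters, since 3 pairs share one, and nothing is read from these counts because the choice of genes used them.

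**Figure D1:**
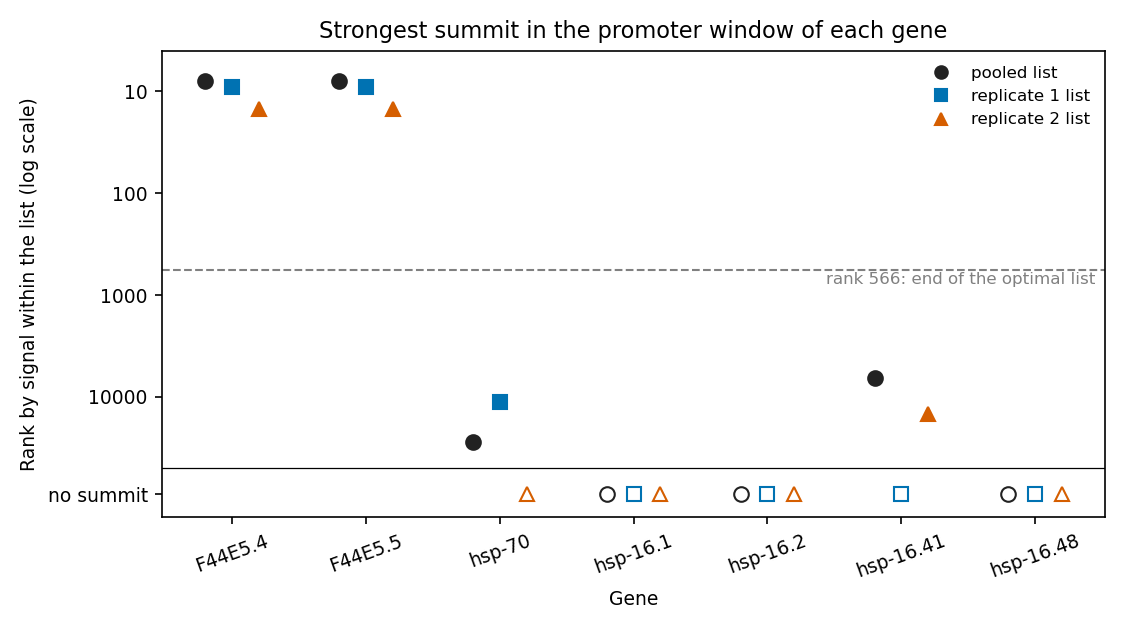
Rank by signal (vertical axis, log scale, strongest at the top) of the strongest summit in the promoter window of each gene, in the pooled list and in each replicate list, with the lists set side by side. F44E5.4 and F44E5.5 share a peak at ranks 8, 9 and 15. Summits at hsp-70 and hsp-16.41 lie below the dashed line at rank 566, and open symbols mark lists with no summit in the window.

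The hsp-70 gene (C12C8.1, WBGene00002026), the remaining HSP70 gene with a coding sequence 80.6% identical to that of F44E5.4, had little signal at its start. It lies at chrI:9320325-9322519 on the minus strand, inside uggt-2 on the opposite strand. The pooled summit was 63 bp past the start with a signal of 24.6, rank 27376, near the bottom of a list whose lowest signal was 23.2. In replicate 1 a summit 61 bp past the start had a signal of 23.6 and ranked 11158. Replicate 2 had none in the window, and its nearest lay 822 bp into the gene at rank 9270. So the candidate at the start of hsp-70 was present in 1 replicate of 2. A stronger candidate lay past the 3' end of hsp-70, with its pooled summit inside a tRNA gene. It had a pooled signal of 49.2 and ranked 4144, with ranks of 2999 in replicate 1 and 22641 in replicate 2. The sequence of hsp-70 is unique by the measure used above: all runs of 36 bases in the gene and from 250 bases before to 50 bases after its start occur once in the genome.

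The hsp-16 genes stand as divergent pairs on chromosome V, each pair 1 gene of the hsp-16.1 kind and 1 of the hsp-16.48 kind. The coding sequences of hsp-16.1 and hsp-16.2 are 90.6% identical and those of hsp-16.48 and hsp-16.41 are 92.1% identical, while the partners of a pair are 60.5% (hsp-16.1 and hsp-16.48) and 58.2% (hsp-16.2 and hsp-16.41) identical. The hsp-16.1/hsp-16.48 pair is duplicated in reverse orientation beside itself as hsp-16.49/hsp-16.11. In the Ensembl annotation the names hsp-16.1 and hsp-16.48 are each given to 2 gene models, so the copies were told apart by their RefSeq coordinates. Here hsp-16.1 is T27E4.8 (WBGene00002015, chrV:9087293-9087782, minus strand) and hsp-16.48 is T27E4.3 (WBGene00002019, chrV:9088131-9088617, plus strand). The other pair is hsp-16.2 (Y46H3A.3, WBGene00002016, chrV:1804334-1804957, minus strand) and hsp-16.41 (Y46H3A.2, WBGene00002018, chrV:1805178-1805875, plus strand).

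No summit of any list lay between the starts of an hsp-16 pair or within 200 bp inside either gene. For hsp-16.2 no summit fell in the promoter window in any list. For hsp-16.41 the window held a pooled summit 987 bp before the start, with a signal of 43.2 and rank 6496. That position is beyond hsp-16.2, past its 3' end and 766 bp from its start. In replicate 1 the matching summit fell 1008 bp before the start, just outside the window, with a signal of 30.6 and rank 4683. In replicate 2 the summits lay 888 and 687 bp before the start of hsp-16.41, at ranks 14617 and 16663. Of these, the summit at 687 bp lay inside hsp-16.2 and the others lay past its 3' end. The hsp-16.41 assignment thus turned on the window's edge in replicate 1, and no summit lay in the promoter it shares with hsp-16.2. For hsp-16.1 and hsp-16.48 the window held no summit in any list. The nearest pooled summit, with a signal of 56 and rank 2558, lay 827 bp past the start of hsp-16.48 and 1176 bp before that of hsp-16.1. It stood between the 3' ends of hsp-16.48 and hsp-16.49, and its ranks were 1487 in replicate 1 and 11659 in replicate 2. This was the strongest pooled candidate within 2500 bp of the start of any of the hsp-16 genes described, and its signal was below the lowest of the optimal list, 86.5.

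Distances to the nearest pooled summit place these genes among all others. It was 63 bp for hsp-70, 147 bp for F44E5.4 and 204 bp for F44E5.5, and 5.27%, 11.3% and 15% of all protein-coding genes had a nearer one. For the hsp-16 genes it was 766 bp at hsp-16.2, 827 bp at hsp-16.48, 966 bp at hsp-16.41 and 1176 bp at hsp-16.1. Nearer summits were found for 39.2% to 50.3% of all genes, and the median distance over all genes was 1166 bp. The hsp-16 genes were thus neither unusually near to candidates nor unusually far from them. The small distance at hsp-70 belongs to a candidate of the lowest ranks.

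Among divergent promoters, here neighbouring genes that start back to back at most 1000 bp apart, the F44E5.4/F44E5.5 peak was strongest in the pooled list. Of 1697 such promoters 27.5% had a pooled summit between the starts or within 200 bp inside either gene, and 33 (1.94%) had an optimal one. The next in order was the promoter of K01G5.10 and tasp-1, with a pooled signal of 224.3 and rank 11. In replicate 2 this promoter ranked 12, ahead of F44E5.4/F44E5.5 at 15. In replicate 1 it ranked 25, behind F44E5.4/F44E5.5 at 9. In the pooled list it was followed by tmem-107 and the ribosomal protein gene rps-26 at rank 14, and by F54D5.9 and dnj-13 at rank 16. The gene dnj-13 encodes a J-domain co-chaperone of HSP70. The promoter of hsp-60, a mitochondrial chaperonin gene, and Y22D7AL.10 stood lower at rank 34. The F44E5.4 and F44E5.5 starts are 351 bp apart, those of hsp-16.1 and hsp-16.48 are 349 bp apart, those of hsp-16.49 and hsp-16.11 are 311 bp apart and those of hsp-16.2 and hsp-16.41 are 221 bp apart. The median over all divergent promoters was 473 bp. The F44E5.4/F44E5.5 summit lay 28.5 bp from the midpoint on the side of F44E5.4. The median absolute distance over the 33 promoters with an optimal summit was 106 bp, and 9 of the 33, this promoter included, were as near or nearer.

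The divergent promoters differ in how much of their sequence is shared with other places, which bears on where a read can be placed. Between F44E5.4 and F44E5.5, 273 of 350 bases (78.0%) start a run of 36 bases found once in the genome. Between hsp-16.2 and hsp-16.41 all 220 bases do. Between hsp-16.1 and hsp-16.48 none of 348 bases do, and between hsp-16.49 and hsp-16.11 none of 310 do. The hsp-16.1/hsp-16.48 stretch matched its copy over 348 bases at 100% identity. The hsp-16.2/hsp-16.41 stretch matched the hsp-16.1/hsp-16.48 one over 220 aligned bases at 84.1% identity. Stretches with no unique run were rare: 30 of the 1676 divergent promoters with starts more than 50 bp apart (1.79%), and 0 of the 566 optimal peaks. Read length, and what was done with reads of several matches, is not given in the sources used here. At hsp-16.1/hsp-16.48 the part of shared sequence in the missing summit was not tested. The hsp-16.2/hsp-16.41 promoter had no summit with its sequence unique throughout.

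**Figure D2:**
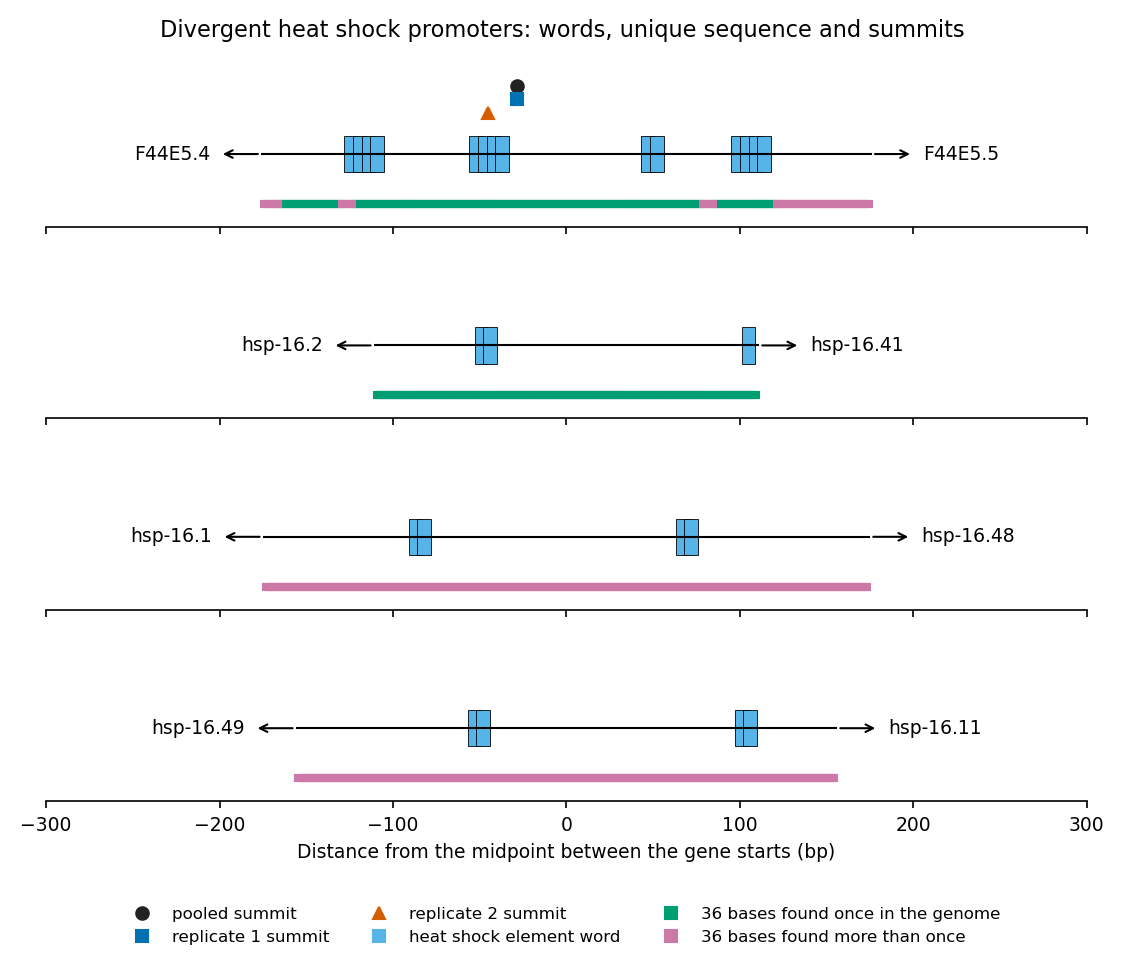
Heat shock element words (blue boxes), summits (symbols above the line) and sequence uniqueness (strip below the line) between the starts of the divergent pairs, as distance from the midpoint in bp, with arrows in the direction of transcription. The F44E5.4/F44E5.5 promoter holds 14 words in 4 arrays and its summits lie inside or 5 bp from the array nearest to the midpoint on the side of F44E5.4; the hsp-16 promoters hold 3 or 4 words and no summit, and the lower pairs hold no unique run of 36 bases.

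The F44E5.4/F44E5.5 promoter is rich in heat shock element words. Between the starts it holds 14 of the words GAANNTTC and TTCNNGAA, searched with overlaps counted; each word reads the same on both strands, and neighbouring words in an array share a unit. The hsp-16 promoters hold 4 (hsp-16.1/hsp-16.48), 4 (hsp-16.49/hsp-16.11) and 3 (hsp-16.2/hsp-16.41). A longer form of 3 alternating units, 2 overlapping words, was found 10 times between F44E5.4 and F44E5.5, against 2, 2 and 1 times in those hsp-16 promoters. The 14 words form 4 arrays, of which 3 span 23 bp with 4 words each and 1 spans 13 bp with 2 words. The pooled summit and that of replicate 1 lay 5 bp from the edge of the second array counted from F44E5.4, at chrII:11759431-11759453. The replicate 2 summit lay inside that array. The other arrays were 72 to 124 bp from the pooled summit. GC content between the starts was 46.9% for F44E5.4/F44E5.5 and 38.8% to 40.9% for the hsp-16 promoters.

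The same words were counted from 250 bases before to 50 bases after each gene's start, in 19973 promoters. F44E5.4 and F44E5.5 held 10 each, in windows that overlap. The genes hsp-16.1, hsp-16.2 and hsp-16.41 held 4 each, and hsp-16.48 and hsp-70 held 3 each. At least 1 word was found in 32.5% of all promoters, at least 3 in 1.42% and at least 4 in 0.325%. All 7 genes were thus among the 283 promoters with 3 or more words, with or without a summit. More words than at F44E5.4 and F44E5.5 were found at 4 promoters, those of ZC262.7 (25), C53C11.4 (19), F55C9.5 (18) and Y54B9A.1 (13), and none of these had an optimal summit. How much of the sequence at these 4 promoters is shared with other places was not measured. TATAAA, the core of the TATA box, was found in this window at each of the 7 genes except hsp-16.48, and in 37.9% of all promoters. Between F44E5.4 and F44E5.5 it stood 26 bp from the start of F44E5.4 and 36 bp from that of F44E5.5.

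**Figure D3:**
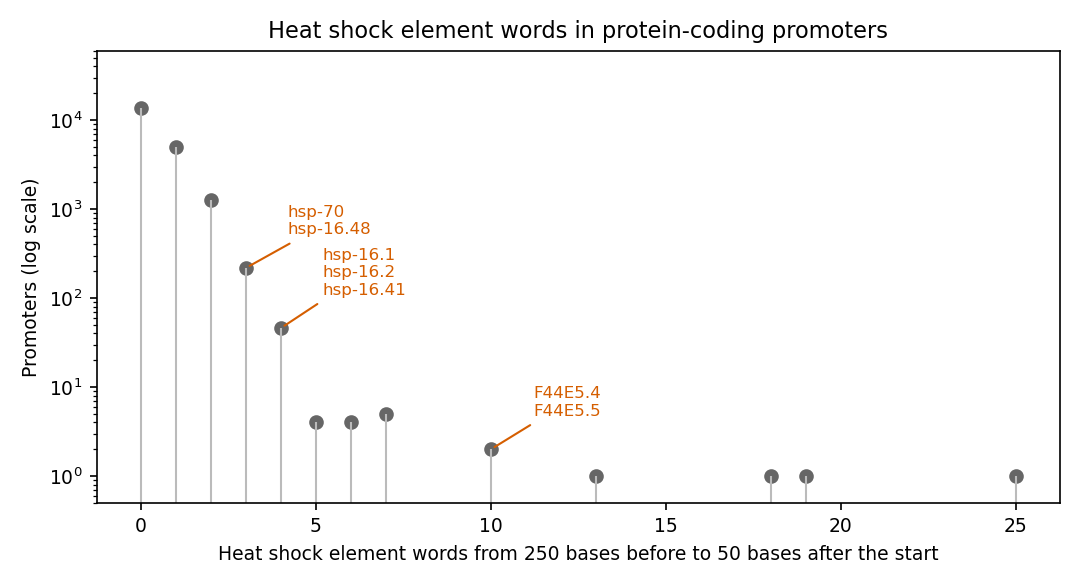
Number of protein-coding promoters (vertical axis, log scale) by the count of heat shock element words from 250 bases before to 50 bases after the start (horizontal axis). Labels mark the genes described: hsp-70 and hsp-16.48 at 3 words, hsp-16.1, hsp-16.2 and hsp-16.41 at 4, and F44E5.4 and F44E5.5 at 10.

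Most optimal summits of CEH-79 had no heat shock element word close by. Windows of 101 bases away from summits were not counted, so the shares of summits given here have no background beside them. In the 101 bases centred on the summit, F44E5.4/F44E5.5 held 4 words. Of the 566 optimal summits, 50 (8.83%) held at least 1 and 5 (0.883%) held at least 3. Besides F44E5.4/F44E5.5 these 5 were a peak at R107.5 and cls-2 (rank 214), a peak at C01G10.7 and ahsa-1 (rank 501) and peaks at ranks 281 and 423 in no promoter window. The peak at rank 423 held 10 words, more than F44E5.4/F44E5.5. The gene ahsa-1 encodes a co-chaperone of HSP90. The homeodomain core words TAATTA and TAATGA were not in the F44E5.4/F44E5.5 window. TAATTA was at 1.41% of optimal summits and TAATGA at 3.0%. CACGTG was not in that window either, and was at 3.53% of optimal summits. GTTGCC was found there and at 27 optimal summits (4.77%). GAGAGA was in the peak but outside that window, and at 13.3% of optimal summits. Words other than those of the heat shock element were searched on both strands.

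Optimal summits over promoters sorted by their words are given as counts. With no word 175 of 13478 promoters (1.3%) had an optimal summit, and with 1 or 2 words 79 of 6212 (1.27%) did. With 3 or more it was 12 of 283 (4.24%). With 4 or more it was 8 of 65, and 6 of 60 without the genes described. Besides F44E5.4 and F44E5.5 these were Y22D7AL.4, C01G10.7 and ahsa-1 through a shared peak, Y54G11A.2, tmem-107 and hsp-110. Candidate summits in the pooled list stood at 32.6% with no word, 31.2% with 1 or 2, 33.9% with 3 or more and 43.1% with 4 or more, or 41.7% of that last class without the genes described. Among divergent promoters an optimal summit was found at 15 of 941 with no word between the starts, 6 of 434 with 1, 4 of 210 with 2, 8 of 112 with 3 or more and 5 of 38 with 4 or more. Without the promoters of the genes described, the last counts were 7 of 109 with 3 or more and 4 of 36 with 4 or more. Highest by count were fbxa-48/fbxa-39, with 20 words, starts 857 bp apart and a pooled rank of 13504, and Y17D7B.3/Y17D7B.2. The latter had 17 words, starts 945 bp apart and no summit. F44E5.4/F44E5.5 came next by count, with starts only 351 bp apart. Word counts were not scaled to the distance between the starts, which differs among divergent promoters. Whether the number of words bears on a summit was not tested. The hsp-16 promoters are among those with 3 or more words and no summit. Of them only hsp-16.2/hsp-16.41, with 3 words, is unique in sequence throughout. At the other hsp-16 promoters, which hold no unique run of 36 bases, the part of shared sequence in the missing summit was not tested.

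**Figure D4:**
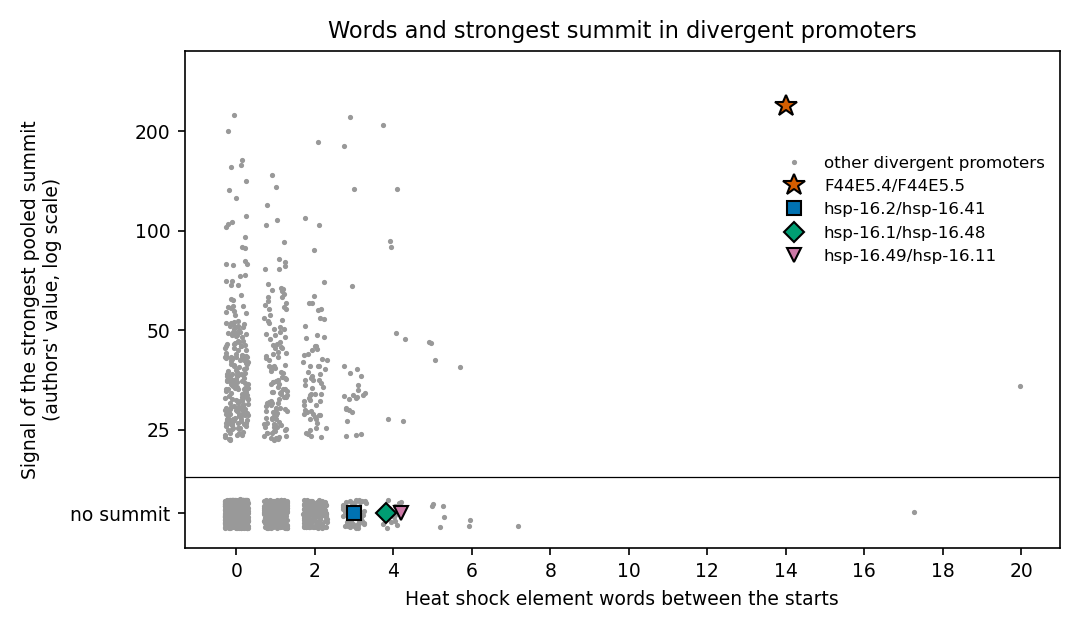
Signal of the strongest pooled summit (vertical axis, log scale; bottom strip, no summit) against heat shock element words between the starts, for 1697 divergent promoters, with points spread sideways within each count. F44E5.4/F44E5.5 stands at 14 words and a signal of 237.5, while the hsp-16 promoters lie in the strip without a summit at 3 or 4 words.

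Other genes of the heat shock system, from lists chosen with earlier results known, show where the F44E5.4/F44E5.5 peak stands among them. Of 7 other HSP70 superfamily genes 3 had an optimal summit and 6 a pooled one. The optimal ones were hsp-110, a nucleotide exchange factor of HSP70 (rank 114, signal 133.4), hsp-1, the constitutive cytosolic HSP70 (rank 119, signal 131.4), and hsp-3, an HSP70 of the endoplasmic reticulum (rank 542, signal 87.6). The mitochondrial HSP70 gene hsp-6 followed at rank 1918, stc-1 at rank 5332 and F11F1.1 at rank 23202, and hsp-4 had no summit. The strongest of these ranked far below the F44E5.4/F44E5.5 peak in the pooled list. Ranks in replicates 1 and 2 were 614 and 54 for hsp-110, 51 and 336 for hsp-1, and 810 and 1325 for hsp-3. The coding sequence of hsp-1 is 66.8% identical to that of F44E5.4. Its promoter held 2 heat shock element words, that of hsp-110 held 4 and that of hsp-3 none.

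Of 14 other small heat shock protein genes 0 had an optimal summit and 7 had a pooled one, and hsp-16.11 and hsp-16.49 had none. The strongest were F08H9.3 at rank 3038, Y55F3BR.6 at rank 5540 and hsp-43 at rank 6813. Among 10 co-chaperones of HSP70 and HSP90, 2 had an optimal summit and 8 a pooled one. These 2 were dnj-13 (rank 16, signal 208.7; ranks 24 and 20 in replicates 1 and 2) and unc-23, a BAG domain protein gene (rank 106, signal 135.8). The gene bag-1 followed at rank 701, and the J-domain genes dnj-19 and dnj-12 at ranks 1649 and 2034. Of 5 matched genes of heat shock transcription 0 had an optimal summit and 1 a pooled one, hsf-1 itself, at rank 29036 with no summit in replicate 1. For hsp-90 this holds at the start of the gene model. The second annotated transcript starts 1242 bp further on, and 404 bp before it lay an optimal summit of rank 74 and signal 148.1. Over all these lists 5 of 36 matched genes had an optimal summit and 22 a pooled one, where 1.33% and 32.2% of all genes did.

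By rank in the pooled and both replicate lists, the promoter peak most like that of F44E5.4/F44E5.5 among 216 optimal promoter peaks was at sre-23, a chemoreceptor gene, with ranks of 9, 10 and 11. Next were rps-26 and tmem-107 with ranks of 14, 13 and 23, and egg-5, a gene of the oocyte-to-embryo transition, with ranks of 7, 4 and 9. Their summed differences in log10 rank over the 3 lists were 0.2316, 0.5884 and 0.632. Only 5 of the 216 ranked 20 or higher in all 3 lists, and F44E5.4/F44E5.5 was among them.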

How the data were processed

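By the deposited notes, the authors called peaks for each replicate and for the pooled alignments, with 1 control alignment, and made the optimal list from those. The sources used here give no aligner or caller. Peaks were ranked within a list by their deposited signal (column 7). The deposited −log10 q, tied at its maximum in 452 pooled peaks, served only as an alternative rank. The lists give no read counts, so depth is unknown. The ce10 lists were not used here.

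Gene models came from Ensembl release 115 of WBcel235, sequence from the RefSeq assembly. Coordinates are 1-based. Replicate peaks matched the pooled peak by at least 1 bp of overlap. Identity is 1 minus edit distance over the longer sequence (edlib 1.3.9.post1), and copies were sought with BLAST 2.17.0. Python 3.11.15, numpy 2.4.6, pandas 2.3.3 and matplotlib 3.10.9 were used. Summit assignment, tested on simulated data, recovered 200 of 200 planted summits over 20000 genes.

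The genes and lists were chosen with earlier results of these data known. Named were the 7 genes, their near-identical copies, each list's genes with an optimal summit and up to 3 others by rank, the 3 promoter peaks nearest in rank and the neighbouring divergent promoters; promoters and peaks rich in words, and that of hsp-60, were named after their values were seen. No statistical test was made. Alternatives covered windows, starts, ranking, list length, distance limits, word forms and each replicate alone, in which the 566 strongest candidates of the other replicate stood in for the optimal list.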

Additional observations from a re-analysis of the deposited data

How the results depend on the processing

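F44E5.4 and F44E5.5 were the genes with an optimal summit under every alternative run: other windows, peak overlap, any transcript start, the stronger part of the optimal list and each replicate alone. Given the peak's high rank in each list and the nearness of its summit to both starts, these alternatives could not remove it. Of 43 alternative values 33 stayed within 1.5 times the value reported or, for the rank of the F44E5.4/F44E5.5 peak, within its SD between replicates. The count of genes with a pooled summit ran from 3 to 6 of 7, with hsp-16.1 and hsp-16.2 added both by the window of 2000 bp before to 500 bp after the start and by counting any peak that overlaps the main window, and hsp-16.41 lost with that of 500 and 100 bp. The rank of the F44E5.4/F44E5.5 peak was 9 to 15 with either replicate alone, and 226.5 by −log10 q, where 452 peaks tie. The best rank at hsp-16 promoters was 14617 without replicate 1 and 2558 with the wider window, and without replicate 2 no summit was left. At hsp-70 it was 11158 without replicate 2, and without replicate 1 no summit was left. Alternatives that left no summit have no rank and are not among the 43 values. The share of all genes with an optimal summit was 0.846% with the narrower window, 2.09% with the wider one and 0.711% with the stronger part of the list. The median count of heat shock element words over the 7 genes was 4, and 2 in the 3-unit form. With any transcript start, an alternative chosen after seeing the data, 1 gene of heat shock transcription, hsp-90, had an optimal summit. Runs of 50 bases, also chosen then, left both hsp-16 promoters with no unique run as they were. No paired analysis was possible because the series holds 1 group.

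With 2 replicates, no untreated or untagged group in these lists and no read counts, no error was computed for a signal and no difference between promoters was tested. Ranks from lists of unknown depth show no change in level. A missing summit says that no peak was listed there, not that the protein was absent.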
